A study of Mus musculus with 8 samples.

Results

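Genes that a cell uses to enter mitosis, build the spindle and split in 2 were followed across mouse liver carrying 1 of 2 hairpin viruses or a control virus. The set was fixed by name as 48 genes, chosen with earlier results of these data known. Each was read from its row in the 8 deposited count tables, which list 24062 gene entries. All 48 were found and all 48 were tested, and 47 reached the filter level of 1.06 CPM (counts scaled for library size) in at least 2 of the 4 hairpin libraries (the exception, Pbk, passed through its control libraries). These 4 libraries pool both hairpin groups. Some members, such as Mybl2 in shDnajb9 (3 and 12 counts), reached the level in only 1 library of a group. The animals were lean wild-type C57BL/6 mice given 0.1 OD of adenovirus, and livers were taken after 1 week and a final 6 h without food. The shDnajb9 virus carried a hairpin against Dnajb9, a co-chaperone of the endoplasmic reticulum, and was set against lacZ1; the shRictor virus carried a hairpin against Rictor, the defining subunit of mTOR complex 2, and was set against lacZ2. The lacZ1 and shDnajb9 mice were 3 months old and the lacZ2 and shRictor mice were 4 months old. Every group, controls included, had received adenovirus, and each group had 2 libraries of ribosome-depleted total RNA. The labels do not state that the paired libraries are from different mice, so the p-values measure the spread between libraries, which may be technical. Age goes with the pair of groups, so age and the pair cannot be told apart, and what the control virus carried beyond its name is not stated.

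Entry into mitosis is driven by Cdk1 bound to cyclin A or cyclin B. The Aurora and Polo kinases then separate the centrosomes and build the spindle, kinetochores attach chromosomes to it, and a checkpoint holds back the anaphase-promoting complex, the ubiquitin ligase that degrades cyclin B and securin, until all are attached. The central spindle and an actomyosin ring finish the division. Adult hepatocytes are mostly outside the cell cycle and re-enter it after loss of tissue or injury, and many are polyploid because cytokinesis is skipped. Most of these genes are transcribed in G2 through the MuvB complex with B-Myb (Mybl2) and FoxM1, which is recruited through a promoter element called the cell cycle genes homology region (CHR), often beside CCAAT boxes bound by NF-Y.

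The promoters are shown because these letters are what most of the members share besides their function. Of the 48 genes, 41 had an entry among the RefSeq promoters of build GRCm38.p6, each 250 bases before to 50 after the annotated start; Foxm1, Aurkb, Ccna2, Kif20a, Incenp, Tpx2 and Pbk had none. The search covered the CHR (TTTGAA or TTCGAA), the CCAAT box (CCAAT) and an E2F site (TTTCCCGC, TTTCGCGC, TTTGCCGC or TTTGGCGC) on both strands, so the reverse forms TTCAAA and ATTGG count as well, and no motif lies inside another. Each line gives the 120 bases before the start, 5′ to 3′ along the gene, with CHR and CCAAT letters of either strand in capitals. Cdk1, Cdc20, Top2a and Kif11 carry both motifs, Ckap2 carries both and had the lowest fold change in both comparisons, Cks2 carries CCAAT letters only and is the gene that did not pass the test, and Mybl2 carries neither.
Cdk1, chr10:69352913-69353032, minus strand: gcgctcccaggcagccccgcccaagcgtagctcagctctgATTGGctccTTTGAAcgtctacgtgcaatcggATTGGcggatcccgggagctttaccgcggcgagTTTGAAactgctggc
Cdc20, chr4:118437344-118437463, minus strand: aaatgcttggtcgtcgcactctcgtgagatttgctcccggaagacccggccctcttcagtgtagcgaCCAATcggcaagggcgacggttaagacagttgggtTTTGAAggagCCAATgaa
Top2a, chr11:99024190-99024309, minus strand: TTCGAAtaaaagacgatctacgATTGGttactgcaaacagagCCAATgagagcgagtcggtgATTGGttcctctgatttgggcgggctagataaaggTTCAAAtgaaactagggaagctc
Kif11, chr19:37376262-37376381, plus strand: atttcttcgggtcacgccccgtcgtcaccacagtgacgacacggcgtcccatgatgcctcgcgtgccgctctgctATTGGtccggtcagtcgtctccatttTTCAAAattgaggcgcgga
Ckap2, chr8:22185820-22185939, minus strand: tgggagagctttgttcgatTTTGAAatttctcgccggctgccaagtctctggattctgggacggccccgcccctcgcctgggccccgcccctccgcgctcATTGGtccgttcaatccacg
Cks2, chr13:51645112-51645231, plus strand: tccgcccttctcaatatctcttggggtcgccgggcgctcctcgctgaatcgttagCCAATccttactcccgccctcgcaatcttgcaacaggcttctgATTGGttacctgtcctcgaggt
Mybl2, chr2:163054515-163054634, plus strand: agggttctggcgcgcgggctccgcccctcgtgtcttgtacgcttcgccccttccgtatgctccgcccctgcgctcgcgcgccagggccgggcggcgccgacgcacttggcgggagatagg

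A CHR was found in 30 of the 41 members (73.2%), against 21.7% of the 27025 genes with a promoter entry. CCAAT letters were found in 30 of 41 (73.2%), against 41.1% of all genes, and 21 members (51.2%) had 2 or more, against 13.3%. Both motifs were present in 25 members (61.0%), against 8.6% of all genes. The E2F letters were found in 2 members (4.9%), against 2.6%. Top2a held 4 CHR and 6 CCAAT matches in its 300 bases, and Cdk1 held 2 and 3. Birc5, Mad2l1, Melk, Mybl2, Nuf2 and Nusap1 had neither motif in the window. A match is a description of these letters and not a measured site.

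**Figure D1:**
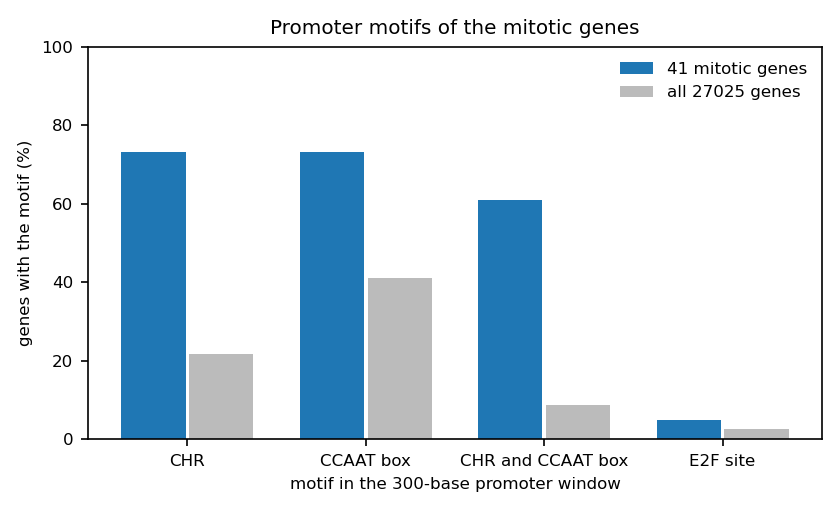
Share of genes (%, y axis) whose 300-base RefSeq promoter window holds each motif (x axis), for the 41 mitotic genes with a promoter entry and for all 27025 genes. CHR and CCAAT letters together were found in 61.0% of the mitotic genes and 8.6% of all genes, while E2F letters were found in 4.9% and 2.6%.

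Gene counts per library ran from 6426164 to 11383532, and 13767 genes were tested. Library shDnajb9 replicate 1 and library lacZ2 replicate 1 stood apart from the others in earlier work on these data. In them 4.7% and 4.26% of gene counts fell on Rpph1, the RNA of RNase P, against 1.11% to 2.03% in the other 6, and the counts of called genes in each comparison and list are also given without these 2 outlying libraries. The share of HTSeq counts without a unique alignment was 22.88% and 24.88% for lacZ1, 41.3% and 41.97% for shDnajb9, 24.59% and 24.23% for lacZ2, and 32.69% and 26.72% for shRictor. It moved with the groups, and its part in the results was not tested. Albumin stood at 12022 to 36972 CPM in the 8 libraries labelled liver, while Ass1, a urea cycle gene of hepatocytes, was listed at 0 to 0.228 CPM. Dnajb9 had levels of 30.6 and 38 CPM under lacZ1 against 22.0 and 20.3 under shDnajb9 (log2 fold change −0.70, adjusted p = 0.056). Rictor had levels of 52.3 and 65.2 CPM under lacZ2 against 40.1 and 42.0 under shRictor (log2 fold change −0.52, adjusted p = 0.231). Rictor had nearly the same estimate under the other hairpin (−0.46 in shDnajb9, adjusted p = 0.239), and the difference between the hairpins was −0.06 (adjusted p = 0.97). Neither target passed its test, so the knockdown is not shown by these counts.

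Mitotic transcripts were far lower in both hairpin groups than in their own controls. In shDnajb9, 47 of the 48 genes passed the test as lower than in lacZ1 and none as higher, while 12.6% of all tested genes were called lower (edgeR quasi-likelihood test, Benjamini-Hochberg adjusted p under 0.05 over all tested genes). In shRictor, 47 of the 48 were called lower than in lacZ2 and none higher, against a background of 10.9% called lower. The genes called lower were the same 47 in both comparisons, where 6.85% of all tested genes were called lower in both, and the gene left over was Cks2. In the same 47, both hairpin libraries lay below both control libraries in each comparison, which holds for 20.7% of all tested genes (35.1% in shDnajb9 alone and 31.6% in shRictor alone). The comparisons use separate control libraries. Because the 48 genes were chosen with earlier results of these data known, their counts beside the background are a description and not independent support.

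The 48 genes together summed to 1852 and 2329 CPM in the lacZ1 libraries and to 284 and 340.9 CPM in the shDnajb9 libraries. They summed to 1555 and 1495 CPM in lacZ2 and to 226 and 340.1 CPM in shRictor. No control library came near a hairpin library, and the group means were 2091 ± 338 CPM for lacZ1, 312.5 ± 40.2 for shDnajb9, 1525 ± 42.3 for lacZ2 and 283 ± 80.6 for shRictor (SD, n = 2). The summed level in shDnajb9 was thus 14.9% of its control, and that in shRictor 18.6%. In bulk liver, fewer dividing cells and less RNA per dividing cell cannot be told apart.

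The median log2 fold change of the 48 genes was −2.76 in shDnajb9, a 6.8-fold lower level, while the median of all tested genes was −0.05. In shRictor it was −2.53, or 5.78-fold lower, with −0.02 over all tested genes. All 47 called genes fell by 2-fold or more in each comparison, against 10.2% of all tested genes in shDnajb9 and 9.07% in shRictor. Called falls of 4-fold or more numbered 44 in shDnajb9 and 37 in shRictor, and falls of 8-fold or more numbered 17 and 8. The shares of all tested genes at 4-fold and 8-fold were not computed, so these counts only describe the members. Ckap2 had the lowest value in both comparisons and Cks2 the highest. Adjusted p-values of the called genes ran from 3.78e-05 to 0.0157 in shDnajb9 and from 4.94e-05 to 0.0237 in shRictor. Without the 2 libraries that stood apart, 46 genes were called lower in shDnajb9 and 44 in shRictor, with medians of −2.54 and −2.46.

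**Figure D2:**
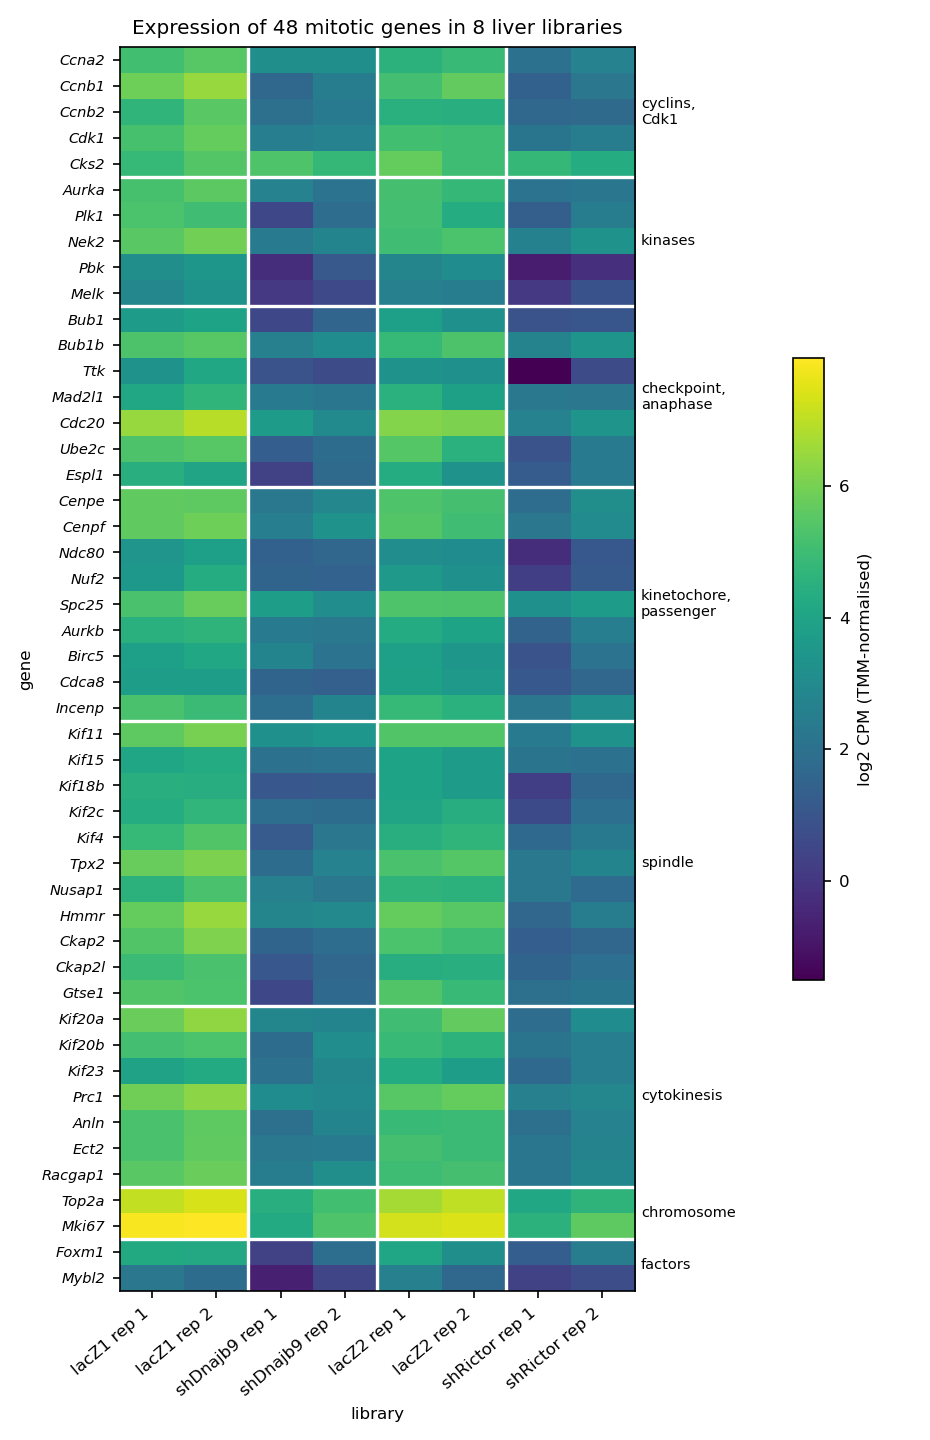
Level of the 48 mitotic genes (rows, grouped by role) in the 8 liver libraries (columns, grouped by virus), as TMM-normalised log2 CPM on the colour scale. The 4 control columns are higher than the 4 hairpin columns in every row but that of Cks2.

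The cyclins and their kinase fell in both groups, apart from Cks2. Of 5 genes in this role, 4 were called lower in each comparison, with a median log2 fold change over all 5 of −2.82 in shDnajb9 and −2.71 in shRictor. Positions are those of the GENCODE M21 annotation on GRCm38. Ccnb1 (chr13:100778650-100786570, minus strand), the B-type cyclin that activates Cdk1, had levels of 57.4 and 90.5 CPM under lacZ1, 3.14 and 5.59 under shDnajb9, 35.2 and 50.4 under lacZ2, and 2.71 and 4.7 under shRictor. Every hairpin library lay far below every control library, and its log2 fold changes were −4.02 ± 0.379 (SE, adjusted p = 6.07e-05) and −3.51 ± 0.371 (adjusted p = 0.000123). Of its exonic 50-base stretches, 23.4% also occur elsewhere in annotated transcripts, among them a Ccnb1 pseudogene, so its counts are less certain. Ccnb2, the second B-type cyclin, shared no such stretch and had levels of 25.5 and 45.9 CPM under lacZ1, 3.98 and 5.14 under shDnajb9, 22.3 and 21.6 under lacZ2, and 3.18 and 3.42 under shRictor. It was 7.65-fold lower in shDnajb9 and 6.61-fold lower in shRictor (adjusted p = 0.000127 and 0.000204).

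Cdk1 (chr10:69335146-69352938, minus strand), the kinase itself, had levels of 36.4 and 52.0 CPM under lacZ1, 5.87 and 6.51 under shDnajb9, 34.1 and 32.3 under lacZ2, and 4.47 and 5.58 under shRictor. The 4 hairpin values were close to each other, and the fall was 7.07-fold and 6.57-fold (adjusted p = 6.07e-05 and 0.000104). Ccna2, cyclin A2, which acts in S phase and at the start of mitosis, had levels of 34.3 and 44.8 CPM under lacZ1, 9.22 and 9.25 under shDnajb9, 23.5 and 28.9 under lacZ2, and 4.12 and 6.46 under shRictor. Its fall was smaller than that of the B-type cyclins in fold, at 4.27-fold in shDnajb9 and 4.91-fold in shRictor (adjusted p = 0.000314 and 0.000265). Of the exonic length of Ccna2, 12.5% overlaps Exosc9 on the opposite strand, so this comparison between the cyclins is less certain.

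Cks2 (chr13:51645232-51650660, plus strand), a small subunit that binds Cdk1 and helps it act on its substrates, was the exception. It had levels of 28.1 and 42.5 CPM under lacZ1, 40.9 and 27.6 under shDnajb9, 52.9 and 32.2 under lacZ2, and 27.9 and 20.3 under shRictor. The lacZ1 and shDnajb9 libraries overlapped, while the shRictor libraries were the lower ones of their pair of groups. Its log2 fold change was −0.05 ± 0.315 in shDnajb9 (adjusted p = 0.924, 95% interval −0.73 to 0.63) and −0.82 ± 0.315 in shRictor (adjusted p = 0.0923, interval −1.5 to −0.14). Neither passed the test, the shDnajb9 interval excludes a 2-fold fall, and 29.7% of the gene's 50-base stretches occur in other annotated transcripts, so these counts are uncertain. The related Cks1b had a log2 fold change of −0.19 in shDnajb9 (adjusted p = 0.692, not called) and was called lower at −1.38 in shRictor (adjusted p = 0.0139).

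All 5 mitotic kinases fell in both groups, with medians of −3.02 and −2.72 on the log2 scale. Aurka, Aurora A, which matures the centrosomes, had levels of 36.8 and 47.8 CPM under lacZ1, 6.5 and 4.22 under shDnajb9, 35.9 and 27.8 under lacZ2, and 4.24 and 4.6 under shRictor. Nek2, a kinase that parts the centrosomes, had levels of 45.5 and 60.8 CPM under lacZ1, 5.24 and 6.85 under shDnajb9, 32.8 and 38.3 under lacZ2, and 6.24 and 9.88 under shRictor. Plk1, the Polo-like kinase that acts from mitotic entry to cytokinesis, had levels of 38.6 and 32.8 CPM under lacZ1, 1.47 and 3.65 under shDnajb9, 34.8 and 20.3 under lacZ2, and 2.59 and 5.58 under shRictor. In each of the 3, every hairpin value was below every control value, and the folds in shDnajb9 were 8.1, 8.62 and 12.9 (adjusted p = 6.25e-05, 6.07e-05 and 0.000196). In shRictor the same genes were 7.18-fold, 4.39-fold and 6.61-fold lower (adjusted p = 0.000116, 0.000391 and 0.000743). Pbk and Melk, a pair of less abundant mitotic kinases, changed by −2.62 and −2.70 in shDnajb9 and by −3.36 and −1.97 in shRictor on the log2 scale.

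Genes of the spindle checkpoint fell as well, as did Cdc20, Ube2c and Espl1, which act with or after the anaphase-promoting complex. Together they were called lower in 7 of 7 cases in each comparison, with medians of −2.91 and −2.57. Cdc20, which activates the complex and is the target of the checkpoint, had levels of 90.7 and 123 CPM under lacZ1, 13.2 and 7.99 under shDnajb9, 73.9 and 68.1 under lacZ2, and 6.36 and 10.5 under shRictor. Ube2c, the ubiquitin-conjugating enzyme that works with the complex, had levels of 39.8 and 45.4 CPM under lacZ1, 2.52 and 3.54 under shDnajb9, 44.2 and 22.9 under lacZ2, and 1.88 and 5.18 under shRictor. Bub1b, the checkpoint protein BubR1, had levels of 39.1 and 45.1 CPM under lacZ1, 6.08 and 8.45 under shDnajb9, 28.7 and 39.7 under lacZ2, and 6.59 and 10.5 under shRictor. The groups did not overlap for any of the 3. The falls were 10.3-fold for Cdc20, 13.6-fold for Ube2c and 5.68-fold for Bub1b in shDnajb9 (adjusted p = 6.07e-05, 0.000191 and 0.000186). In shRictor they were 8.38-fold, 9.25-fold and 3.99-fold (adjusted p = 0.000116, 0.0004 and 0.000623). The exons of Ube2c overlap those of Tnnc2 on the opposite strand over 22.8% of their length, and whether the counting used strand is not given in the sources used here.

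Bub1 and Ttk (Mps1), the kinases that start checkpoint signalling, changed by −2.58 and −3.02 in shDnajb9 and by −2.57 and −3.27 in shRictor. Mad2l1, the inhibitor that the checkpoint loads onto Cdc20, changed by −2.16 and −1.99. Espl1, separase, which cuts cohesin at anaphase, changed by −2.91 in shDnajb9 (adjusted p = 0.00172) and by −1.95 in shRictor (adjusted p = 0.0103). The Espl1 call in shRictor was lost without lacZ2 replicate 1 (−1.38, adjusted p = 0.114), without shRictor replicate 1 (−1.49, adjusted p = 0.0855) and without the 2 libraries that stood apart (−1.38, adjusted p = 0.0513).

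Genes of the kinetochore and of the chromosomal passenger complex, which corrects faulty attachments, were called lower in 9 of 9 cases in each comparison, with medians of −2.30 and −2.33. Cenpe, the kinetochore motor that brings chromosomes to the equator, had levels of 49.8 and 48.5 CPM under lacZ1, 4.82 and 7.31 under shDnajb9, 40.8 and 35.5 under lacZ2, and 3.65 and 8.9 under shRictor. Cenpf, a large protein of the outer kinetochore, had levels of 50.3 and 58.1 CPM under lacZ1, 5.87 and 10 under shDnajb9, 43.0 and 33.3 under lacZ2, and 4.71 and 8.32 under shRictor. Incenp, the scaffold of the passenger complex, had levels of 37.1 and 30.6 CPM under lacZ1, 3.77 and 6.74 under shDnajb9, 28.5 and 23.1 under lacZ2, and 4.71 and 8.8 under shRictor. Replicate 1 was the lower library of both hairpin groups for all 3 genes, and no hairpin library overlapped a control. The log2 fold changes were −2.98, −2.73 and −2.63 in shDnajb9 (adjusted p = 0.000198, 0.000171 and 0.000283) and −2.58, −2.53 and −1.92 in shRictor (adjusted p = 0.000433, 0.00031 and 0.00161).

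The Ndc80 complex, which holds the microtubule end, is represented by Ndc80, Nuf2 and Spc25, and these changed by −2.08, −2.49 and −2.03 in shDnajb9 and by −2.49, −2.63 and −1.84 in shRictor. Aurkb, the kinase of the passenger complex, changed by −2.22 and −2.02, and its partner Cdca8 (borealin) by −2.30 and −2.33. Birc5 (survivin), the third partner, had the smallest fall of the role in shDnajb9, at −1.56 ± 0.358 (adjusted p = 0.00852), with −2.0 ± 0.365 in shRictor (adjusted p = 0.00251).

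Spindle motors and microtubule-binding proteins had the lowest role median in shDnajb9, −3.27, with −2.71 in shRictor, and 11 of 11 were called lower in each comparison. Ckap2 (chr8:22168160-22185819, minus strand), a microtubule-stabilising protein of the spindle poles, had levels of 41.9 and 69.5 CPM under lacZ1, 2.93 and 3.65 under shDnajb9, 39.0 and 32.2 under lacZ2, and 2.47 and 3.03 under shRictor. Its fall, 16.5-fold in shDnajb9 (adjusted p = 3.78e-05) and 12.8-fold in shRictor (adjusted p = 4.94e-05), was the largest estimate among the 48 in each comparison. Ckap2l, its paralog, had levels of 30.7 and 37.6 CPM under lacZ1, 2.1 and 3.08 under shDnajb9, 20.8 and 22.2 under lacZ2, and 2.94 and 3.82 under shRictor. Gtse1, a microtubule plus-end protein of G2 and mitosis, had levels of 41.1 and 39.0 CPM under lacZ1, 1.47 and 3.31 under shDnajb9, 41.9 and 29.0 under lacZ2, and 4.0 and 4.5 under shRictor. Tpx2, which activates Aurora A on the spindle, had levels of 54.3 and 68.3 CPM under lacZ1, 3.56 and 6.51 under shDnajb9, 37.9 and 44.0 under lacZ2, and 4.83 and 6.75 under shRictor. For all 4 genes the hairpin libraries formed a low group with no overlap. Ckap2l, Gtse1 and Tpx2 were 12.7-fold, 15.6-fold and 11.7-fold lower in shDnajb9 (adjusted p = 3.78e-05, 3.78e-05 and 3.81e-05). In shRictor they were 6.31-fold, 8.28-fold and 7.03-fold lower (adjusted p = 0.000119, 0.000116 and 0.000119).

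Among the kinesins of the spindle, Kif11 (Eg5), which pushes the poles apart, changed by −2.44 in shDnajb9 and −2.41 in shRictor, and Kif15, which can act beside it, by −2.13 and −1.74. Kif18b and Kif2c, which shorten microtubules, changed by −3.28 and −2.67 in shDnajb9 and by −2.71 and −2.77 in shRictor. Kif4, a chromosome-bound motor, changed by −3.24 and −2.51. Nusap1 and Hmmr, which bind spindle microtubules, changed by −2.53 and −3.27 in shDnajb9 and by −2.55 and −3.46 in shRictor.

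All 7 genes of the central spindle and of cytokinesis were called lower in each comparison, with medians of −2.95 and −2.53. Prc1, which bundles the central spindle, had levels of 59.6 and 79.3 CPM under lacZ1, 8.59 and 7.42 under shDnajb9, 44.8 and 53.0 under lacZ2, and 6.12 and 7.24 under shRictor. Ect2, the exchange factor that switches on RhoA at the furrow, had levels of 38 and 50 CPM under lacZ1, 4.82 and 5.14 under shDnajb9, 35.4 and 30.9 under lacZ2, and 4.59 and 6.65 under shRictor. Anln (anillin), which ties the ring to the membrane, had levels of 37.9 and 48.2 CPM under lacZ1, 3.98 and 6.74 under shDnajb9, 29.8 and 30.6 under lacZ2, and 4.0 and 6.36 under shRictor. These 3 genes did not overlap between hairpin and control libraries and had similar folds, 8.72, 8.76 and 7.75 in shDnajb9 (adjusted p = 3.78e-05, 4.62e-05 and 0.000101) and 7.29, 5.84 and 5.77 in shRictor (adjusted p = 7.05e-05, 0.000119 and 0.00021). Racgap1 and Kif23, which together form centralspindlin, changed by −2.76 and −1.56 in shDnajb9 and by −2.53 and −1.87 in shRictor. The Kif23 call in shDnajb9 (adjusted p = 0.00672) was lost without shDnajb9 replicate 1 (−1.27, adjusted p = 0.05). Kif20a and Kif20b, kinesins of the central spindle, changed by −3.31 and −2.49 in shDnajb9 and by −2.76 and −2.39 in shRictor, and 29.3% of the exonic length of Kif20a overlaps Cdc23 on the opposite strand.

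Top2a and Mki67 act on mitotic chromosomes. Top2a, topoisomerase II alpha, which untangles sister DNA, had levels of 134 and 164 CPM under lacZ1, 21.4 and 34.1 under shDnajb9, 101 and 133 under lacZ2, and 17.4 and 24.8 under shRictor. Mki67 (chr7:135689784-135716361, minus strand), the Ki-67 antigen used to stain dividing cells, had levels of 229 and 246 CPM under lacZ1, 19.3 and 40.6 under shDnajb9, 157 and 172 under lacZ2, and 23.5 and 47.9 under shRictor. Replicate 1 was the lowest library of each hairpin group for both genes, and neither gene overlapped its controls. Top2a was 5.3-fold lower in shDnajb9 and 5.53-fold lower in shRictor (adjusted p = 0.000218 and 0.000235), and Mki67 was 7.84-fold and 4.6-fold lower (adjusted p = 0.000343 and 0.00189).

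The transcription factors Foxm1 and Mybl2, known activators of G2 and mitotic genes, had the smallest role median in shRictor, −1.66, with −2.35 in shDnajb9. Foxm1 had levels of 18.9 and 18.5 CPM under lacZ1, 1.26 and 3.77 under shDnajb9, 17.2 and 9.31 under lacZ2, and 2.47 and 5.48 under shRictor. Its log2 fold changes were −2.76 ± 0.468 (adjusted p = 0.00172) and −1.70 ± 0.432 (adjusted p = 0.0168), and its groups did not overlap. Mybl2 had levels of 4.7 and 3.58 CPM under lacZ1, 0.629 and 1.37 under shDnajb9, 6.16 and 3.22 under lacZ2, and 1.29 and 1.66 under shRictor. It was the scarcest member per kilobase in lacZ1 and changed by −1.93 ± 0.501 (adjusted p = 0.0157) and −1.63 ± 0.447 (adjusted p = 0.0237). In shRictor both calls were lost without lacZ2 replicate 1 (adjusted p = 0.165 for Foxm1 and 0.203 for Mybl2) or without shRictor replicate 1 (adjusted p = 0.127 and 0.135). The Mybl2 call was also lost without shRictor replicate 2 (adjusted p = 0.083) and, in shDnajb9, with lacZ1 replicate 1 left out (adjusted p = 0.111) and with shDnajb9 replicate 1 left out (adjusted p = 0.101).

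**Figure D3:**
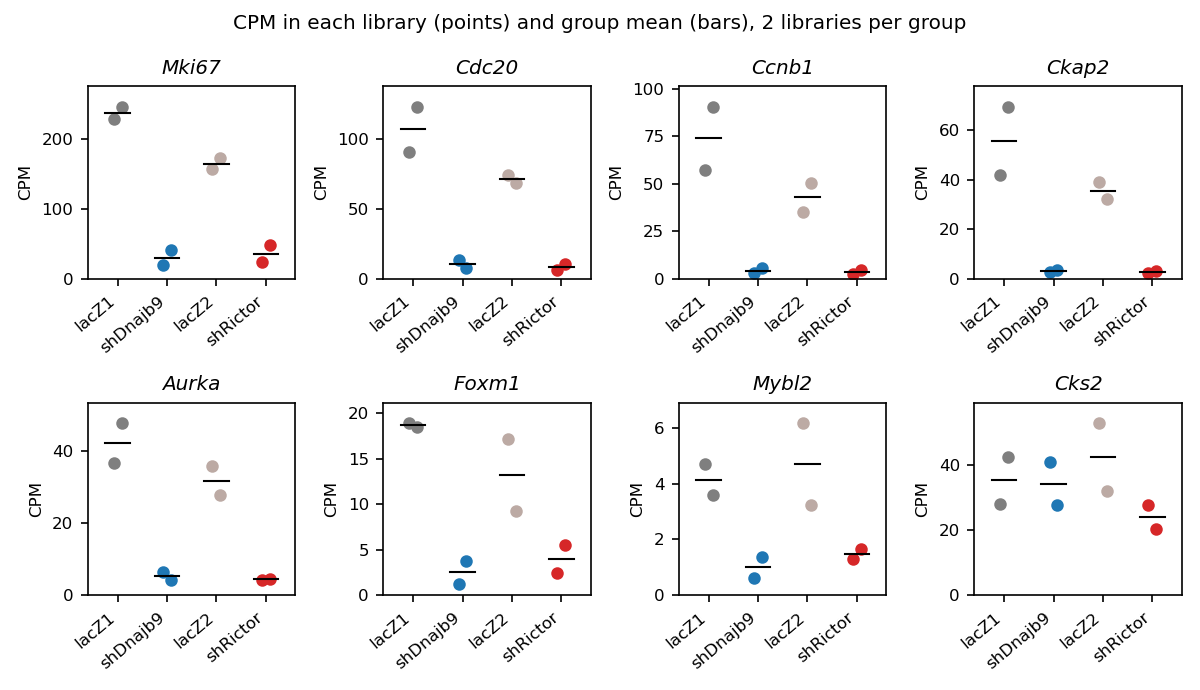
CPM (y axis, from 0) of selected mitotic genes in each library (points) with the group mean (bars), 2 libraries per group. Ccnb1 sits between 2.71 and 5.59 CPM in the 4 hairpin libraries and between 35.2 and 90.5 CPM in the 4 control libraries, while the lacZ1 and shDnajb9 points of Cks2 overlap.

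The levels of the members relative to each other, as CPM per kilobase of exon, were kept to a large extent. Spearman's rho across the 48 genes was 0.83 between lacZ1 and shDnajb9 and 0.91 between lacZ2 and shRictor, and it was 0.99 between the lacZ groups. These values describe genes of shared libraries and are not a test. Cdc20 was the most abundant member per kilobase in lacZ1 at 57.2 CPM per kb, followed by Cks2 at 51.0, Mki67 at 23.6 and Ccnb2 at 23.3. In shDnajb9 Cks2 held rank 1 and Cdc20 rank 2, and the order was the same in lacZ2 (61.5 and 38 CPM per kb) and in shRictor. Ccnb1 moved from rank 5 in lacZ1 to rank 22 in shDnajb9, and from rank 12 in lacZ2 to rank 24 in shRictor.

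The promoter classes shown above were set beside the fold changes, with no test. The median log2 fold change was −2.97 in shDnajb9 and −2.57 in shRictor for the 25 members with both CHR and CCAAT letters. It was −2.81 and −2.51 for the 10 members with 1 of the 2 motifs, and −2.32 and −2.0 for the 6 members with neither. Ckap2 and Cdc20 belong to the first class, Ccnb1, Gtse1 and Cks2 to the second, and Birc5 and Mybl2 to the third. The classes also differ in abundance. Nusap1, Birc5, Melk, Mad2l1, Nuf2 and Mybl2, with neither motif, held ranks 25, 35, 39, 42, 43 and 48 per kilobase in lacZ1. Across the members, CPM per kilobase in lacZ1 and the shDnajb9 log2 fold change had a Spearman rho of −0.51. The lacZ1 values enter both quantities, and noise in them alone lowers this rho, so it cannot show a part of abundance. The part of abundance in these medians was not tested.

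Whether the 2 hairpins differed was tested as the shRictor change minus the shDnajb9 change. None of the 48 genes passed (smallest adjusted p = 0.438; 0.00726% of all tested genes, a single gene, passed), and 2 had an unadjusted p under 0.05 in edgeR. DESeq2 and limma-voom called none of the 48 either. Of all 13767 tested genes, 1495 had an unadjusted p under 0.05 in edgeR, a larger share than 2 of 48. The fall was larger in shDnajb9 (a positive difference) for 35 members and larger in shRictor for 13. Over all tested genes 6764 differences were positive and 7003 negative. The median difference was 0.25 on the log2 scale for the members and −0.01 over all tested genes. Nek2 had a difference of 0.98 (95% interval 0.1 to 1.85) and Ckap2l one of 1.00 (0.12 to 1.89), the 2 intervals that exclude 0 before adjustment. Gtse1 differed by 0.91 (−0.09 to 1.91), Tpx2 by 0.73 (−0.18 to 1.64) and Cks2 by −0.77 (−1.73 to 0.19). Over all members the intervals reached from −2.08 to 2.45, and only 5 of 48 lay within a 2-fold difference in either direction, so differences of about that size are not excluded for the rest. Without the 2 libraries that stood apart, 0 of the 48 passed and the median difference was 0.26.

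Across the 48 genes the fold changes of the comparisons had a Pearson r of 0.78 and a Spearman rho of 0.74, and r was 0.71 over the 47 genes without Cks2. Over all tested genes r was 0.74. These are descriptions across genes, which are not independent replicates.

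**Figure D4:**
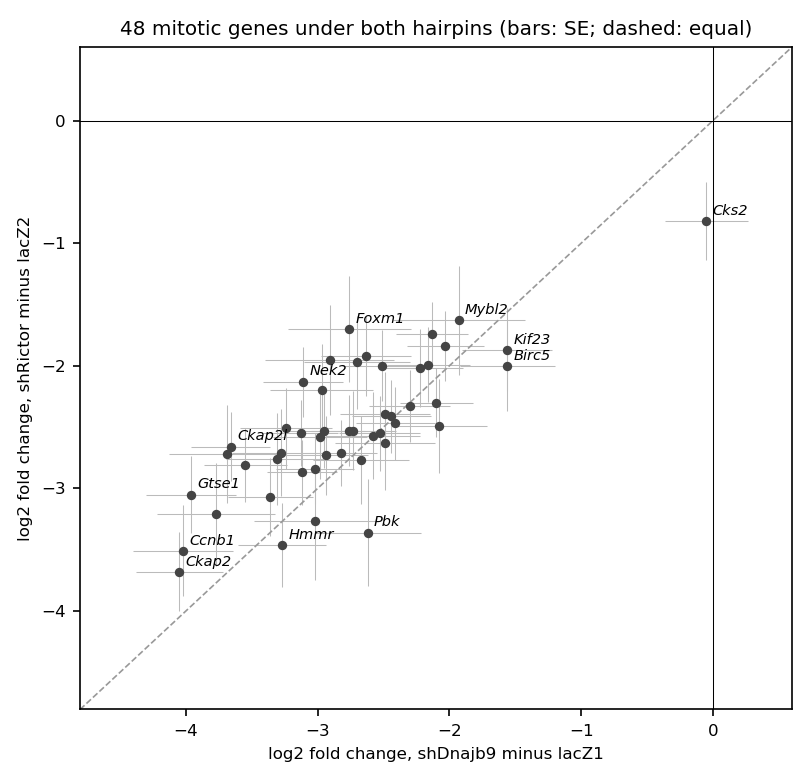
Log2 fold change in shRictor (y axis) against that in shDnajb9 (x axis) for the 48 mitotic genes, with standard errors as bars and a dashed line of equal change. Cks2 lies alone near the top right at −0.05 and −0.82, and the other 47 lie below −1.5 on both axes.

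The controls themselves were compared, since lacZ2 and lacZ1 differ in age. No member passed (edgeR, adjusted p of 1.0 for each, 0.0% of all tested genes called), 9 had an unadjusted p under 0.05, and DESeq2 and limma-voom called none of the 48. Of all 13767 tested genes, 169 had an unadjusted p under 0.05 in edgeR. The direction among the members was nevertheless mostly one way: 46 of 48 were lower in lacZ2, beside 7269 of the 13767 tested genes. In 33 members both lacZ2 libraries lay below both lacZ1 libraries, against 9.97% of all tested genes. The median log2 difference was −0.43, with −0.01 over all tested genes. The genes with the smallest unadjusted p-values were Ckap2l (log2 difference −0.66), Ccnb2 (−0.70), Ccnb1 (−0.78), Ckap2 (−0.65) and Ccna2 (−0.59). Without the 2 libraries that stood apart, 0 members were called and the median was −0.51. The same 5 genes changed by −2.10 to −4.05 in shDnajb9 and by −2.30 to −3.68 in shRictor.

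Libraries of 1 group also differed. Relative to the mean of their own controls, the median log2 level of the members was −3.06 and −2.51 in the shDnajb9 libraries and −2.79 and −2.18 in the shRictor libraries. Replicate 1 was the lower library for 34 of 48 genes in shDnajb9, 44 in shRictor and 40 in lacZ1, but for 16 in lacZ2. Depth limits the low values: 9 members had under 10 counts in shDnajb9 replicate 1, 4 in shRictor replicate 1 and 1 in shRictor replicate 2. The 48 genes summed to 1355 counts in the shallowest case, shDnajb9 replicate 1, and to 20891 in lacZ1 replicate 1.

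Other genes of the division machinery were read from lists of related genes, beside 12.6% and 10.9% of all tested genes called lower. Of 36 further kinetochore and centromere genes, 24 were called lower in shDnajb9 and 25 in shRictor, none higher, with medians of −1.50 and −1.70. Sgol2 (shugoshin 2, which protects centromeric cohesin) changed by −2.97 and −2.70, Casc5 (Knl1, the kinetochore platform for checkpoint proteins) by −2.41 and −2.56, and Zwilch by −3.01 and −2.23. Of 32 further spindle and cytokinesis genes, 24 and 21 were called lower and none higher, with medians of −2.28 and −2.08. Cdca3, a trigger of mitotic entry, changed by −3.08 and −2.84, Iqgap3 by −3.60 and −2.49, and Dlgap5, a spindle assembly factor, by −2.89 and −2.51. Without the 2 libraries that stood apart, 16 and 21 of the kinetochore list and 22 and 20 of the spindle list were called lower, where 6.59% and 8.3% of all tested genes were.

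Of the condensin subunits 7 of 8 were called lower in each comparison, and of the 10 genes of cohesin and its partners, Cdca5 in both and Rad21 in shDnajb9, a division made after the values were seen. Of all 18 genes, 9 (50%) were called lower in shDnajb9 and 8 (44.4%) in shRictor, with medians of −0.68 and −0.32. The shares of all tested genes called lower were 12.6% and 10.9%. In shDnajb9, 1 of the 18 (5.56%) was called higher, under the 11.6% of all tested genes. The condensin subunits Ncaph, Smc2 and Ncapg changed by −3.10, −1.96 and −2.33 in shDnajb9 and by −2.40, −2.10 and −2.54 in shRictor. Pttg1 (securin), the inhibitor of separase, had levels of 6.74 and 9.9 CPM under lacZ1 against 16.6 and 14.8 under shDnajb9, with no overlap, and was called higher at 0.92 (adjusted p = 0.0284). In shRictor it did not pass (0.60, adjusted p = 0.147). Its call in shDnajb9 was lost with total count scaling (0.50, adjusted p = 0.202), when lacZ1 replicate 1 was left out (0.63, adjusted p = 0.292) or shDnajb9 replicate 1 was (0.85, adjusted p = 0.114), and without the 2 libraries that stood apart (0.85, adjusted p = 0.11). Without those 2 libraries, 7 and 8 of the 18 genes were called lower and 0 higher.

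Regulators of mitotic entry were mixed, with 10 of 23 (43.5%) called lower in each comparison, none higher, and medians of −0.59 and −0.75. The shares of all tested genes called lower were 12.6% and 10.9%. Mybl1, the relative of Mybl2, had levels of 40.1 and 56.9 CPM under lacZ1, 2.52 and 4.11 under shDnajb9, 71.9 and 48.8 under lacZ2, and 4.59 and 4.99 under shRictor. It changed by −3.81 (adjusted p = 3.81e-05) and −3.65 (adjusted p = 4.84e-05), more than Mybl2 did. Cdc25c, a phosphatase that activates Cdk1, changed by −2.96 and −3.0. With those outlying libraries left out, 8 and 7 of the 23 were called lower.

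The core of the anaphase-promoting complex, which cells hold through the whole cycle, was read together with its activator Fzr1 and its conjugating enzyme Ube2s. Of these 16 genes, 4 were called lower and 2 higher in shDnajb9 and 2 lower and 0 higher in shRictor, with medians of −0.38 and −0.19. These are 25% and 12.5% lower, beside 12.6% and 10.9% of all tested genes, and 12.5% higher in shDnajb9, beside 11.6% of all tested genes. The 2 called lower in shRictor were Anapc4, with the smallest adjusted p of the list there (edgeR, 0.00469), and Ube2s. Anapc4, Anapc2 and Anapc5 had log2 fold changes of −0.83, −0.97 and −0.83 in shDnajb9, and all 3 calls were lost without lacZ1 replicate 1 (adjusted p = 0.0798, 0.169 and 0.102), without shDnajb9 replicate 1 (0.0882, 0.118 and 0.121) and without the 2 libraries that stood apart (0.0904, 0.119 and 0.0829). Those of Anapc4 and Anapc5 were also lost without lacZ1 replicate 2 (0.089 and 0.15). The higher genes, Anapc13 (0.91, adjusted p = 0.0242) and Anapc11 (1.01, adjusted p = 0.0308), lost their calls with total count scaling (0.46 and 0.55), without lacZ1 replicate 1 (0.71 and 0.92), without shDnajb9 replicate 1 (0.58 and 0.47) and without the 2 libraries that stood apart (0.58 and 0.46), and Anapc11 also without lacZ1 replicate 2 (1.06, adjusted p = 0.0855). Ube2s, called lower in shRictor (−1.11, adjusted p = 0.0302), lost its call without lacZ2 replicate 1 (0.281), shRictor replicate 1 (0.115) or shRictor replicate 2 (0.14) and without the 2 libraries that stood apart (0.141). Without those 2 libraries, 1 and 2 of the 16 were called lower and 0 higher.

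Genes of the earlier phases were read from a replication list and a G1 list, with no test between the lists. Of 46 DNA replication genes, 32 (69.6%) were called lower in shDnajb9 and 35 (76.1%) in shRictor, with a median of −1.39 in both. The shares of all tested genes called lower were 12.6% and 10.9%. In each comparison 1 of the 46 (2.17%) was called higher, under the 11.6% and 7.31% of all tested genes. Mcm2 and Mcm5, subunits of the replicative helicase, changed by −2.30 and −2.09 in shDnajb9 and by −1.65 and −2.13 in shRictor, and Lig1, which joins Okazaki fragments, by −2.38 and −2.57. Mcm10, an initiation factor, went the other way at 1.07 (adjusted p = 0.0242) and 1.15 (adjusted p = 0.0201). Its levels were 49.9 and 61.9 CPM under lacZ1, 148 and 86.9 under shDnajb9, 38.1 and 60.9 under lacZ2, and 118 and 102 under shRictor, higher in every hairpin library than in its controls. Both of its calls were lost with total count scaling (0.61, adjusted p = 0.0949, and 0.77, adjusted p = 0.054) and without the 2 libraries that stood apart (0.64, adjusted p = 0.136, and 0.86, adjusted p = 0.06). The shDnajb9 call was also lost when lacZ1 replicate 1 (adjusted p = 0.204), lacZ1 replicate 2 (0.0579) or shDnajb9 replicate 1 (0.206) was dropped, and the shRictor call when lacZ2 replicate 1 (0.175) or shRictor replicate 1 (0.1) was. When the outlying libraries were dropped, 25 and 31 of the 46 genes were called lower and 0 higher.

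Of 24 tested G1 genes, 9 (37.5%) were called lower and 1 (4.17%) higher in each comparison, with medians of −0.67 and −0.77. The shares of all tested genes were 12.6% and 10.9% lower, and 11.6% and 7.31% higher, so the higher share lies under the background. Ccne1 (cyclin E1), which starts S phase, changed by −2.99 and −3.04. Cdkn1a (p21), an inhibitor of cyclin-dependent kinases, had levels of 69.6 and 47.3 CPM under lacZ1, 7.34 and 5.37 under shDnajb9, 111 and 61.3 under lacZ2, and 5.18 and 8.32 under shRictor. It changed by −3.23 (adjusted p = 0.000163) and −3.66 (adjusted p = 0.000116), in the same direction as the cyclins it inhibits. Rbl2 (p130), the pocket protein of resting cells, was the higher gene at 0.71 (adjusted p = 0.0353) and 1.02 (adjusted p = 0.00744), and both calls were lost with total count scaling (0.29 and 0.62, adjusted p = 0.361 and 0.082). The shRictor call was also lost when lacZ2 replicate 1 was dropped (0.89, adjusted p = 0.0825). The shDnajb9 call was lost when any of the 4 libraries compared was dropped (adjusted p from 0.0527 to 0.187), when either shRictor library was (0.0506 and 0.0507), with no filter (0.0527), with those 4 libraries fitted alone (0.0598) and with the crossed replicate block (0.0536). After both outlying libraries were removed, 8 and 7 of the 24 genes were called lower and 1 higher in each comparison.

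**Figure D5:**
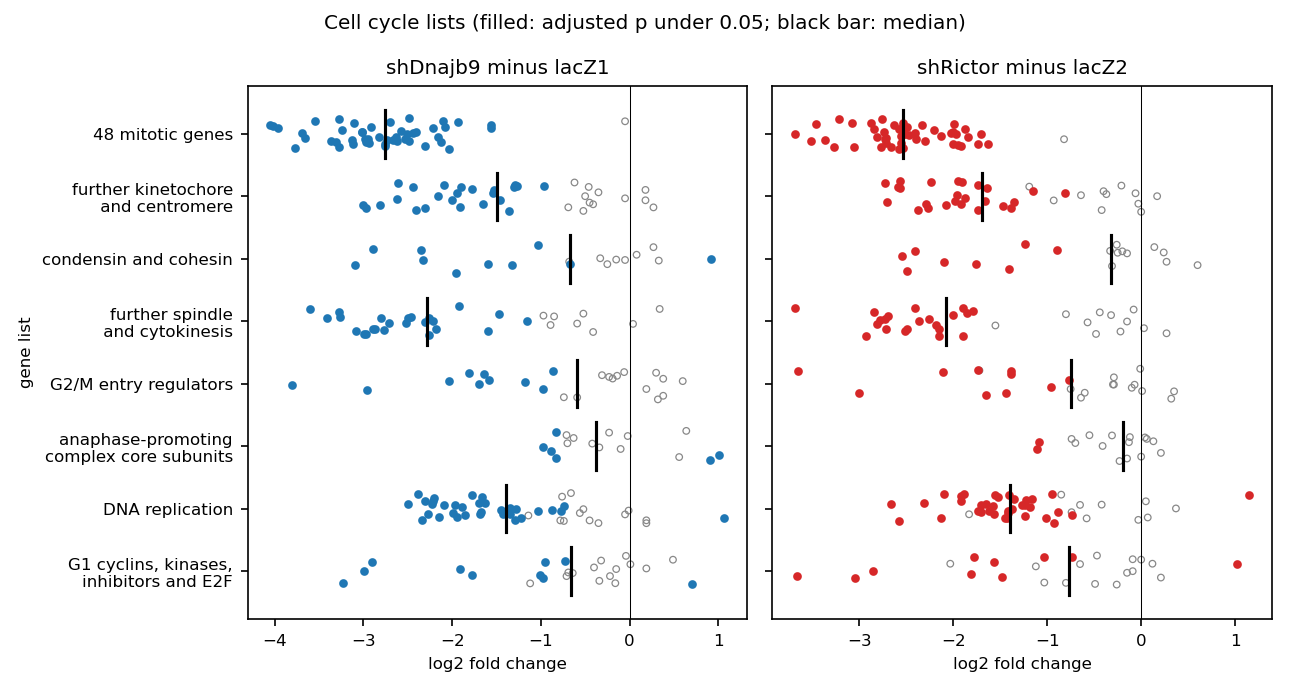
Log2 fold change (x axis) of each gene in the 48 mitotic genes and in 7 lists of related cell cycle genes (y axis), for shDnajb9 minus lacZ1 and shRictor minus lacZ2. Filled points passed at an adjusted p under 0.05 and black bars are list medians. These run from −2.76 and −2.53 for the mitotic genes to −0.38 and −0.19 for the anaphase-promoting complex list, which also holds Fzr1 and Ube2s.

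Markers of the cell types in liver were read beside these genes, and their counts stand against the shares of all tested genes called lower (12.6% and 10.9%) and higher (11.6% in shDnajb9 and 7.31% in shRictor). Of 8 tested neutrophil markers, 6 were called lower in shDnajb9 (Ltf, Ngp, Camp, Lcn2, Mpo and Mmp8) and 2 in shRictor (S100a9 and Lcn2). The summed level of that list was 204 to 235 CPM in lacZ1, 34.5 to 40.5 in shDnajb9, 151 to 248 in lacZ2 and 20 to 47.4 in shRictor, and S100a8, Mpo and Retnlg were at 0 in both shDnajb9 libraries. Most of that sum was Lcn2, which hepatocytes also make. The other markers called in shDnajb9 were near the floor, at 0.596 to 11.0 CPM in lacZ1 and 0 to 0.228 in shDnajb9. The lacZ1 libraries differed for Ltf (11.0 and 1.67 CPM) and Mpo (2.84 and 0.596) but little for Mmp8 (1.86 and 1.55). S100a9 stood at 3.14 and 1.18 CPM in lacZ2 and 0.353 and 0.196 in shRictor. Elane, not tested, had 0.443 and 0.358 CPM in lacZ1 and 0.629 and 0.457 in shDnajb9. With both outlying libraries removed, 2 and 1 of the 8 were called lower. Of 12 T and NK cell markers, 1 (8.33%, under the background) and 3 (25%) were called lower, with sums of 60.5 to 73.4 and 33.5 to 50.9 CPM for lacZ1 and shDnajb9 and of 55.0 to 91.5 and 40.1 to 43.9 CPM for lacZ2 and shRictor. Cd8a, of cytotoxic T cells, changed by −1.45 and −1.23. With those outlying libraries left out, 0 and 7 of 13 T and NK cell markers were called lower.

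Of 10 tested macrophage and Kupffer cell markers, 2 and 3 were called lower, with sums of 1835 to 2155, 1643 to 1816, 1852 to 2072 and 1064 to 1270 CPM in lacZ1, shDnajb9, lacZ2 and shRictor. Of 10 stellate cell and fibroblast markers, 5 and 2 were called lower, with sums of 629 to 710, 360 to 471, 593 to 630 and 431 to 465 CPM. Of 6 tested cholangiocyte markers, 2 and 0 were called lower, with sums of 103 to 103, 36.3 to 65.9, 71.2 to 120 and 52.7 to 75.0 CPM. Of 10 endothelial markers none was called lower in either comparison and 1, Clec4g, was higher in shDnajb9, and none of 4 tested B and plasma cell markers was called. Of 6 tested erythroid precursor markers, Tfrc and Slc4a1 were called lower and Alas2, Klf1 and Car1 higher in both comparisons, and the globin genes Hba-a1, Hbb-bs and Hbb-b1 were at 0 in every library. Of 11 tested hepatocyte markers, 6 were called higher in each comparison, and the list summed to 41823 to 56456, 71614 to 89429, 22495 to 44411 and 70606 to 76737 CPM. The rise was not shared by every marker. Alb, the most abundant of them in the controls, changed by −0.36 in shDnajb9 and by 0.67 in shRictor on the log2 scale, and Hnf4a by 0.11 and 0.37. When the outlying libraries were dropped, the markers called lower were 0 and 3 for macrophages, 4 and 2 for stellate cells, 1 and 1 for cholangiocytes and 2 and 1 for erythroid precursors, and those called higher were 5 and 5 for hepatocytes, 2 and 3 for erythroid precursors and 0 for endothelium. The part of these shifts in the fall of the mitotic genes was not tested, and the counts do not say which cells carried the mitotic transcripts.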

How the data were processed

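Liver RNA of 8 mouse libraries in 4 groups was measured by sequencing of ribosome-depleted total RNA. The authors deposited raw read counts per gene, made with cutadapt and HTSeq on build mm10 per the submitters' processing notes; the aligner, annotation, strand setting and all versions are not given in the sources used here. The 5 HTSeq classes of unassigned reads, 48.4% to 63.7% of each library, were left out of library sizes and tests. Groups came from the labels.

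One model with 4 group means was fitted over all 8 libraries with edgeR 4.0.16 in R 4.3.3 (TMM scaling, filterByExpr with a minimum count of 10, robust quasi-likelihood F tests, Benjamini-Hochberg over the 13767 tested genes, threshold 0.05). Fold changes, standard errors and p-values come from this fit. CPM were computed from the counts with TMM-scaled library sizes, and 95% intervals cover the model's error. The common biological coefficient of variation was 0.209 with 4 residual degrees of freedom. Within groups the replicates differed by more than sampling noise (chi-square per degree of freedom 19.36 to 55.37), so none was counted as a duplicate.

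Positions, exonic lengths, 50-base stretches shared with other transcripts and overlaps came from GENCODE M21. Promoters came from RefSeq on GRCm38.p6. Members are given by role: values of every library are printed for the 3 smallest p-values of each role in shDnajb9, both genes of a role of 2, exceptions in call, and the 5 smallest p-values in the difference of the comparisons and between the controls; up to 4 genes a list and comparison are named elsewhere, plus calls against the rest. The members and lists were chosen with earlier results of these data known. The fit was tested on simulated counts. DESeq2 1.42.0, limma 3.58.1 (voom), other scalings and filters, a replicate block and leaving out libraries were run as alternatives.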

Additional observations from a re-analysis of the deposited data

Results flagged for a closer look

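The share of HTSeq counts without a unique alignment lies outside the gene counts that the comparisons use, and it was higher in the hairpin libraries than in their controls. The lower of the 2 shDnajb9 libraries stood at 41.3%, above both lacZ1 libraries (22.88% and 24.88%). The lower of the 2 shRictor libraries stood at 26.72%, above both lacZ2 libraries (24.59% and 24.23%). No test was run on these shares, and their part in the fall of the mitotic genes was not tested. No group had the 4 libraries needed to look for a library far from the others.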

How the results depend on the processing

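The number of mitotic genes called was recomputed under 19 alternative settings and 1 more that was chosen after seeing the data. Leaving out each library in turn gave 45 to 47 called genes in shDnajb9 and 44 to 47 in shRictor, all lower, and 0 in the difference of the comparisons and between the controls. With total count scaling and with no filter, 48 were called lower in shRictor, since Cks2 then passed (−1.24, adjusted p = 0.0209, and −0.81, adjusted p = 0.0204). Total count scaling moved the median of the 48 genes to −3.16 in shDnajb9 and −2.95 in shRictor, and that of all tested genes to −0.464 and −0.424. Leaving out libraries gave medians of −3.16 to −2.54 and −2.85 to −2.23. The median difference between the comparisons ran from −0.04 to 0.55 and that between the controls from −0.60 to −0.25.

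The fold change of Cks2 turned positive in shDnajb9 without lacZ1 replicate 2 (0.27) and without shDnajb9 replicate 2 (0.21), and leaving out libraries gave a range of −0.35 to 0.27. Between the controls it turned negative without lacZ1 replicate 1 (−0.02), without lacZ2 replicate 1 (−0.13) and without the 2 libraries that stood apart (−0.13), with a highest value of 0.60 when 1 library was left out. The Mybl2 call in shDnajb9 was also lost without the 2 libraries that stood apart (adjusted p = 0.0627), as were those of Foxm1 (0.0646) and Mybl2 (0.143) in shRictor, from edgeR. In these cases the cause was not tested.

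Counts over all genes moved more. In shDnajb9, 3325 genes were called, and 998, 2041 and 1385 without lacZ1 replicate 1, lacZ1 replicate 2 and shDnajb9 replicate 1, and 1675 without the 2 libraries that stood apart. In shRictor, 2508 were called, and 1053, 1156 and 1317 without lacZ2 replicate 1, shRictor replicate 1 and shRictor replicate 2. In the difference of the comparisons, 1 gene was called, 395 with no filter, 45 with DESeq2, 3 with the replicate block, and 0 to 19 when libraries were left out. Between the controls edgeR called 0 genes over all 8 libraries, with 169 at an unadjusted p under 0.05, and it called 13 with no filter and 1 each with only the 4 control libraries, without lacZ2 replicate 2 and without shRictor replicate 1; DESeq2 called 1 and limma-voom 0.

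Replicate numbers are shared by the groups, but nothing in the labels ties same-numbered libraries to each other. The deviations of replicate 1 correlated at −0.3 between shDnajb9 and lacZ1, −0.032 between shRictor and lacZ2, and 0.203 between the controls. With the replicate block, 47 and 47 mitotic genes were called lower, with medians of −2.80 and −2.56, and 3289 and 2470 of all genes. With the pairing of shDnajb9 crossed, 47 and 47 mitotic genes and 2992 and 2286 of all genes were called. The related-gene and marker lists were recounted without the 2 libraries that stood apart, a step also chosen after seeing the data.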
